A study of Mus musculus with 9 samples.

Results

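Expression of 9 enzymes of the tricarboxylic acid (TCA) cycle and of the itaconate branch that leaves it was examined in mouse bone marrow (BM)-derived macrophages (Mϕs). The genes were taken by name, as the cycle enzymes outside complex II together with Acod1. They are Acod1, Cs, Idh1, Idh2, Idh3a, Ogdh, Fh1, Mdh1 and Mdh2, 9 of the 53379 genes in the deposited table. All 9 were matched and all 9 passed the filter on low values, with 158 to 16653 sequenced fragments behind each value.

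The TCA cycle runs in the mitochondrial matrix, where it oxidizes acetyl-CoA and delivers electrons to the respiratory chain. Citrate synthase makes citrate, which is converted to isocitrate by way of cis-aconitate, and dehydrogenases carry the carbon on through 2-oxoglutarate, succinate, fumarate and malate to oxaloacetate. Acod1 (also called Irg1) draws cis-aconitate out of the cycle and decarboxylates it to itaconate, a metabolite of inflammatory Mϕs that inhibits succinate dehydrogenase, whereas Mϕs activated with IL-4 are known for oxidative metabolism.

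BM cells of 3 wild-type C57BL/6 mice first grew for 3 days in 10 ng/ml CSF-1, which drives them to become Mϕs. For the next 4 days they received 10 ng/ml CSF-1 alone (control), CSF-1 with 10 ng/ml IL-4, or CSF-1 with 100 ng/ml IL-6, so that every group carried CSF-1. These doses and times are those of the labels, whereas the study's methods give a higher dose of IL-4 and its legends give other doses and a shorter time. Each condition has 3 libraries of polyadenylated RNA, numbered #1 to #3, read here as the 3 mice, and values are FPKM (fragments scaled to exon length and library total), so that levels can be compared between genes. Each culture is a whole BM culture, in which a larger share of expressing cells and more RNA per cell cannot be told apart.

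The libraries held 29988160 to 39909571 fragments. The 7 Mϕ markers, Adgre1, Csf1r and Lyz2 among them, had a mean above the filter in every group, and their summed FPKM was 16537 to 18825 in control libraries, 6006 to 7028 with IL-4 and 20053 to 21174 with IL-6. Socs3, induced by IL-6 signaling, was at 1.61 to 2.91 FPKM in control and 74.7 to 85.5 in IL-6 libraries. Arg1, the arginase induced by IL-4, was at 0.409 to 0.718 in control and 730.3 to 1227.4 in IL-4 libraries. Libraries differed in 2 ways besides treatment. A list of 20 intestinal secretory genes, most of them foreign to BM, summed to 55.3 to 95.6 FPKM in the 3 control libraries and IL-4 #1 and to 1.32 to 13.1 in the other 5, so for IL-6 against control this set of libraries cannot be told apart from treatment. In the IL-6 group 16 of the 20 genes were at 0 in every library and 1 averaged at least 0.5 FPKM. A fit with a term for the set compares IL-4 #1 alone with the 3 controls, on the assumption that it varies like the other libraries, and reaches IL-6 against control only by way of the distance of IL-4 #1 from IL-4 #2 and #3. Values from it are given on those terms. IL-4 #3 lost level with gene length, with a slope of −0.11 log2 units per doubling of exon length against −0.04 to 0.05 in the other 8 libraries.

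Promoters of the members that stood out are shown first, because they differ in makeup. RefSeq promoters (assembly GRCm38.p6, 250 bases before to 50 after a gene's start) were found for 8 of the 9 members. Those of Acod1, which was highest with IL-6, and of Mdh2 and Fh1, which were highest with IL-4, read 5′ to 3′ on the gene's own strand as follows, with the letters of a matched motif in capitals.
Acod1 promoter, chr14:103046762-103047061, plus strand: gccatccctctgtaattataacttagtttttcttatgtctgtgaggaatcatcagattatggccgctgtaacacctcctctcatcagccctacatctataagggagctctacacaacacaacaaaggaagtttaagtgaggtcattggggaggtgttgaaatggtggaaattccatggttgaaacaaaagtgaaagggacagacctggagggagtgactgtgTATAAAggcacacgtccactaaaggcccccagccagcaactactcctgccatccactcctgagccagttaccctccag
Mdh2 promoter, chr5:135778399-135778698, plus strand: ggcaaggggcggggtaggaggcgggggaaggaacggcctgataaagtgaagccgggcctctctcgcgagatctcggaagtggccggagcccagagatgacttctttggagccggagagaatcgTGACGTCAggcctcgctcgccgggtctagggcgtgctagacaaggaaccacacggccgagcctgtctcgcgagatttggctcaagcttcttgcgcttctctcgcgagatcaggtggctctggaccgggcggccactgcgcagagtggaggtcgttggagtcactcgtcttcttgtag
Fh1 promoter, chr1:175625586-175625885, minus strand: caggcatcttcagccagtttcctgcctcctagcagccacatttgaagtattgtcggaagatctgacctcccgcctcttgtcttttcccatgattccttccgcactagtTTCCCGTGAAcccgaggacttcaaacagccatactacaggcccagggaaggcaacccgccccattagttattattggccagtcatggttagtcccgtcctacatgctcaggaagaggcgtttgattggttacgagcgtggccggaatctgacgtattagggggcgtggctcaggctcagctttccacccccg
The capitals mark TATAAA, the TATA box, in Acod1 (first base at −28 from the start), TGACGTCA, the cAMP response element, in Mdh2 (−127), and TTCNNNNGAA, a STAT motif with a 4-base spacer, in Fh1 (−142). On either strand, TATAAA stood in 13.6% of 32851 mouse promoters of the same length and in 1 of the 8 members, and TTCNNNNGAA in 6.95% and in 1 of 8. TGACGTCA stood in 1.79% of promoters and in 2 of the 8 members, the other being Ogdh, while TTCNNNGAA, the STAT motif with a 3-base spacer, stood in 8.30% and in none of the 8. Shares are per promoter, whereas a member counts if any of its promoters holds the motif, so the scales differ. Ogdh and Idh1 have several promoters, and those of Ogdh with TGACGTCA overlap at the same site. The Acod1 promoter held 2 CpG dinucleotides against 11 to 37 in the promoters of the other members, both ends of that range being promoters of Ogdh. Of all promoters, 14.1% held fewer than that of Acod1. The median over all promoters was 7. A match describes these letters only, and binding was not measured.

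The comparison of IL-6 with control asks what this cytokine does to Mϕs that CSF-1 alone maintains. Acod1 rose 20.4-fold and Idh2 fell to 0.631 of its control level, and the other 7 members did not pass the test. The test was limma on log2(FPKM + 0.1) over 12824 genes, with a member called at a Benjamini-Hochberg adjusted p under 0.05. Thus 2 of 9 members were called, against 8.4% of all genes tested, with 1 higher (4.58% of all genes) and 1 lower (3.82%). Acod1 alone also changed by at least 2-fold, as did 5.38% of all genes. The median log2 fold change was −0.13 over the 9 members and 0.00 over all genes.

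In IL-4 against control Mϕs, Mdh2, Fh1 and Idh3a rose, by 2.13-, 1.53- and 1.77-fold. These 3 of 9 members compare with 24.8% of all genes called. All 3 were higher, as were 8.55% of all genes, and none fell, as did 16.3%. Mdh2 alone passed with at least 2-fold, against 13.9% of all genes. The median log2 fold change of the members was 0.52, beside −0.20 over all genes.

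The 2 cytokines were also compared directly. In IL-6 against IL-4 Mϕs, 5 of 9 members were called, against 34.1% of all genes. Acod1 was 8.05-fold higher with IL-6, in the direction of 20.8% of all genes, and Mdh2, Mdh1, Idh3a and Fh1 were lower, in the direction of 13.3%. Acod1, Mdh2 and Mdh1 differed by at least 2-fold, against 20.4% of all genes. The median log2 fold change was −0.43 over the members and 0.22 over all genes. This contrast shares its libraries with both comparisons against control.

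**Figure D1:**
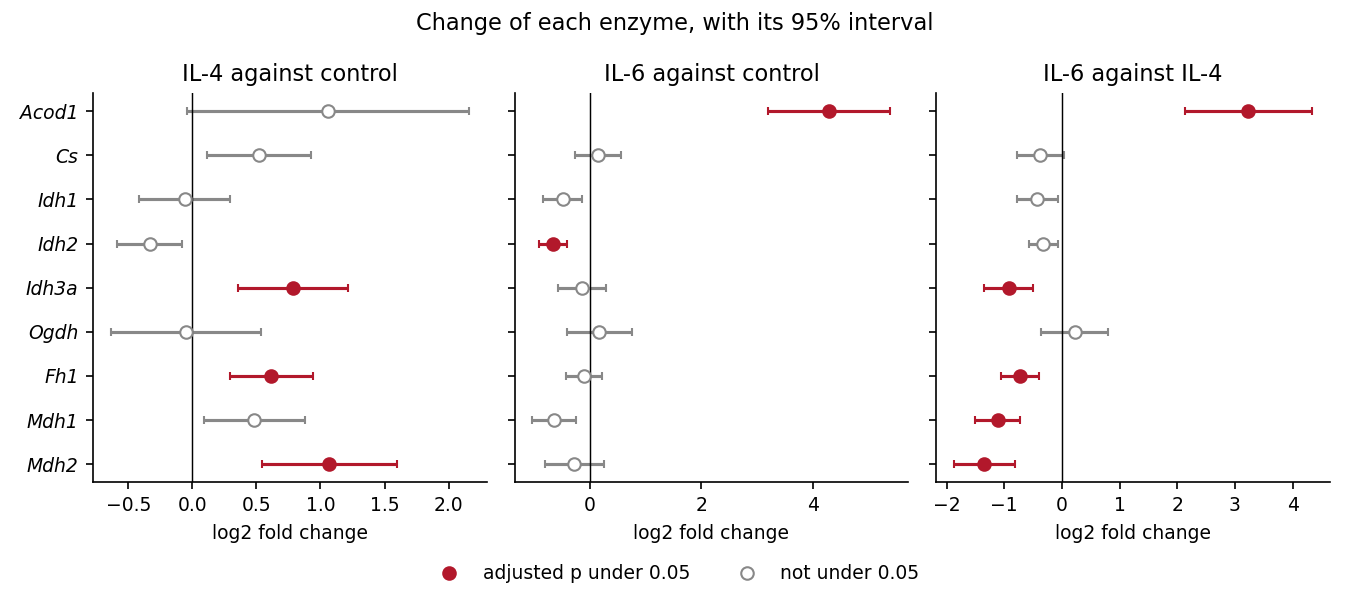
Log2 fold change (x axis) of each of the 9 enzymes in the 3 comparisons, as points with 95% intervals from limma, filled where the adjusted p was under 0.05. Acod1 lies far to the right in both IL-6 comparisons, at 4.29 and 3.24, and Mdh2, Mdh1, Idh3a and Fh1 lie left of 0 in IL-6 against IL-4.

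These medians move with scaling. When each library was rescaled by its median ratio, the median over all genes went from −0.20 to −0.01 in IL-4 against control and from 0.22 to 0.02 in IL-6 against IL-4. The calls over all genes in IL-4 against control were then 1574 higher and 1618 lower, in place of 1096 and 2090, and those in IL-6 against IL-4 were 2280 and 2205, in place of 2671 and 1704. No called member changed its direction under the rescaling. Cs in IL-4 against control (log2 fold change 0.72, adjusted p = 0.0024 by limma), Idh1 in IL-6 against control (−0.49, 0.032), and Cs, Idh1 and Idh2 in IL-6 against IL-4 passed as well.

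Acod1, the itaconate-producing decarboxylase (chr14:103046977-103056573, GRCm38, plus strand), was at 2.92, 2.01 and 1.85 FPKM in control #1 to #3. In IL-4 #1 to #3 it was at 10.6, 4.14 and 2.37, and in IL-6 #1 to #3 at 56.4, 43.8 and 37.6. The IL-6 libraries lay above all 6 others without overlap, while IL-4 #3 lay below control #1, and IL-4 was above control in each of the 3 pairs of the same number. The log2 fold change of IL-6 against control was 4.29 ± 0.48 (SE, adjusted p = 0.0014 by limma), with a 95% interval from 3.20 to 5.39. In each of the 9 fits without 1 library the call was kept. IL-4 against control gave 1.06 ± 0.48 (adjusted p = 0.15), with an interval from −0.04 to 2.16. Its adjusted p was 0.052 with the mouse number as a block, 0.032 with trends on exon length and GC content taken out as well, and 0.044 after quantile normalization, so the call depended on the fit.

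Acod1 was therefore also compared within each set of libraries. IL-4 #1, the IL-4 library in the set with intestinal transcripts, was 4.70 times the control mean, and the IL-6 mean was 14.1 times that of IL-4 #2 and #3, the IL-4 libraries of the other set. On the log2 scale IL-4 against control was 2.21 with a term for this set, which rests on IL-4 #1 alone, and without IL-4 #3 it reached 1.54 (adjusted p = 0.015 by limma). Summed granulocyte markers, Mpo, Elane and S100a8 among 9, were at 7891 to 10965 FPKM in IL-6, 4741 to 8459 in control and 2137 to 3978 in IL-4 libraries, and none of the 9 was at 0 in every library of a group. Their part in the Acod1 result was not tested.

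Genes for the further handling of itaconate were measured as well. Clybl, which acts in the breakdown of itaconate, was at 2.46 to 4.02 FPKM in control libraries, 6.90 to 11.1 with IL-4 and 3.22 to 4.01 with IL-6. It rose with IL-4 (log2 fold change 1.40 ± 0.23, adjusted p = 0.0033 by limma) and was lower in IL-6 than in IL-4 Mϕs (−1.20 ± 0.23, 0.0052). Sugct, a CoA transferase that can activate itaconate, fell below the filter, at 0.115 to 0.465 FPKM over all libraries.

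**Figure D2:**
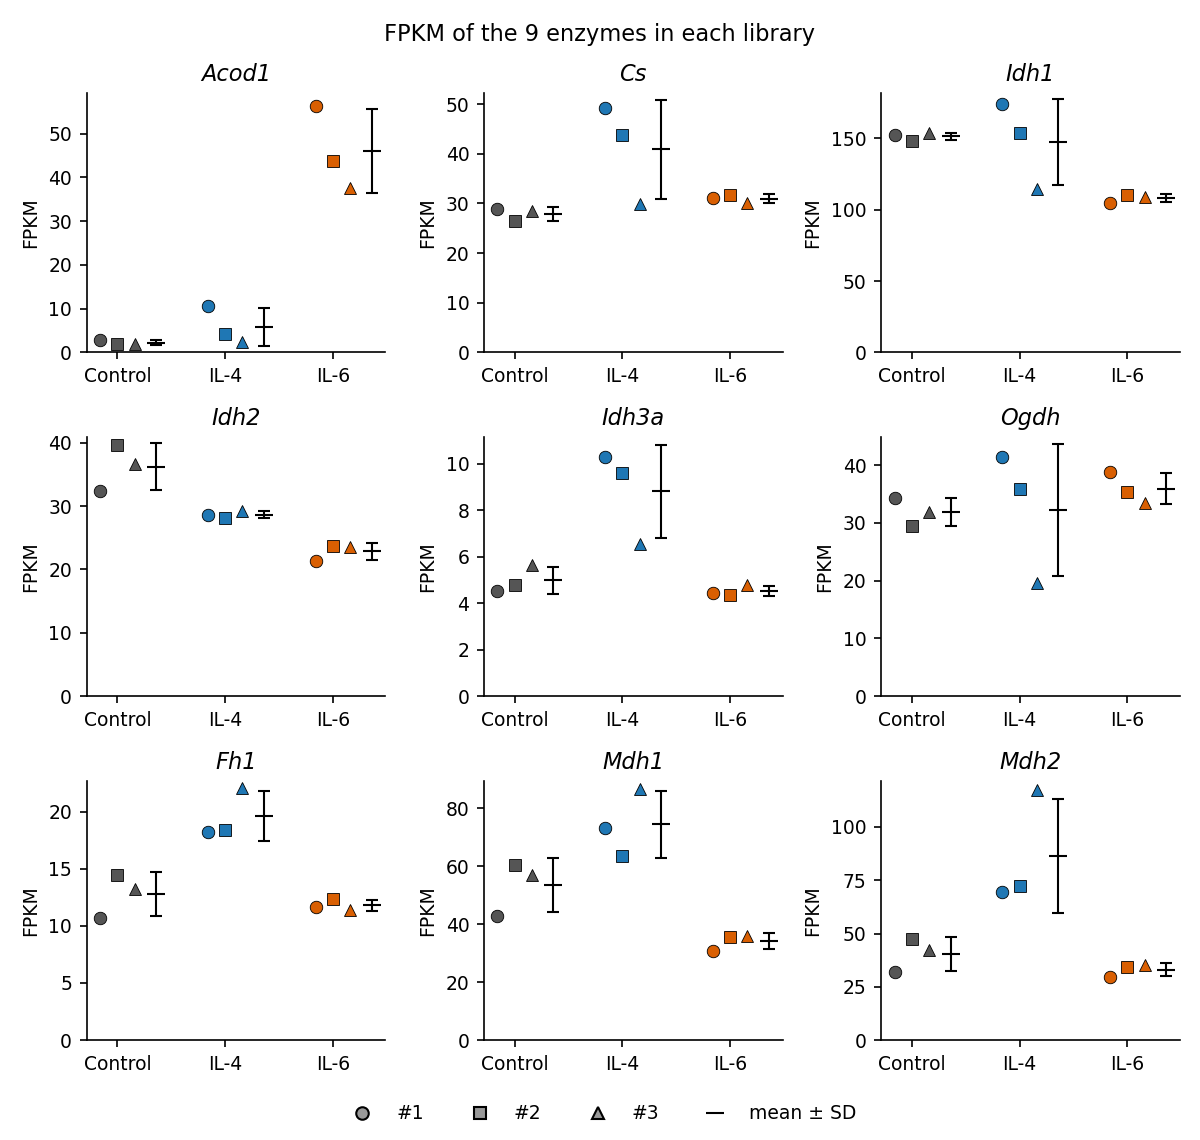
FPKM (y axes from 0, linear) of each of the 9 enzymes in the control, IL-4 and IL-6 libraries, 1 point per library with its number as the symbol, and mean ± SD beside them. The 3 IL-6 points of Acod1 stand apart from the rest, the 3 IL-4 points of Mdh2 and Fh1 lie above all other points, and IL-4 #3 is the lowest IL-4 point for Acod1, Cs, Idh1, Idh3a and Ogdh.

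Cs, citrate synthase at the entry of the cycle (chr10:128337734-128362479, plus strand), was at 28.9, 26.4 and 28.4 FPKM in control libraries, 49.1, 43.9 and 29.9 under IL-4 and 31.1, 31.7 and 30.01 under IL-6, each in the order #1 to #3. All IL-4 libraries lay above control, with #3 close to it and below each IL-6 library. The log2 fold change of IL-4 against control was 0.52 ± 0.18 (adjusted p = 0.065 by limma). Without IL-4 #3 it was 0.73 (adjusted p = 0.00038), and 0.72 (0.00021) once trends on exon length and GC content had been taken out of each library. IL-6 against control gave 0.15 with an interval from −0.26 to 0.56. Of the 50-base stretches of Cs transcripts, 2.01% also occur in Csl, a close copy, so reads there could be split.

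The isocitrate dehydrogenases make 2-oxoglutarate, Idh3 in the cycle with NAD, Idh2 in mitochondria and Idh1 in the cytosol with NADP. Idh1 (chr1:65158616-65186500, minus strand) had the highest level of the 9 enzymes in every library but IL-4 #3, where Mdh2 was higher. It was at 152.1, 148.3 and 153.4 FPKM in control libraries, 173.9, 153.7 and 114.4 under IL-4 and 104.6, 110.5 and 109.1 under IL-6. IL-6 libraries lay below all 6 others, and IL-4 libraries lay on both sides of control. IL-6 against control was −0.48 ± 0.15 (adjusted p = 0.11 by limma) and IL-6 against IL-4 −0.43 ± 0.15 (0.064). Without IL-4 #3 the second was −0.60 (adjusted p = 0.00084 by limma). The first stayed at −0.48 (0.0031), since that library is in neither of its groups and only the spread shared by the 3 groups changed. With a term for the set the first was −0.09.

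Idh2 (chr7:80094846-80115392, minus strand) was at 32.4, 39.7 and 36.7 FPKM in control libraries, 28.5, 28.2 and 29.3 under IL-4 and 21.4, 23.6 and 23.6 under IL-6. The 3 groups did not overlap and stood in the order control, IL-4, IL-6 from high to low. IL-6 Mϕs had 0.631 of the control level (log2 fold change −0.66 ± 0.11, adjusted p = 0.0087 by limma), the only fall called among the members against control. The fit without control #3 gave an adjusted p of 0.054, and that with a term for the set −0.67 (adjusted p = 0.18). IL-4 lay between, at −0.33 ± 0.11 from control (adjusted p = 0.060), IL-6 against IL-4 gave −0.33 ± 0.11 (0.051), and the distance of IL-4 from control was −0.13 after rescaling by the median ratio. Mdh1 (−0.63) and Idh1 (−0.48) also lay below every control library with IL-6, without being called. They passed with only the 2 groups fitted (adjusted p = 0.026 and 0.0041 by limma).

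Idh3a, the catalytic subunit of the NAD-dependent enzyme (chr9:54586334-54604661, plus strand), was at 4.54, 4.79 and 5.66 FPKM in control libraries, 10.3, 9.61 and 6.56 under IL-4 and 4.46, 4.35 and 4.78 under IL-6. IL-4 libraries were the 3 highest, and control and IL-6 overlapped. It rose with IL-4 by 0.79 ± 0.19 on the log2 scale (adjusted p = 0.017 by limma), and IL-6 against IL-4 gave −0.92 ± 0.19 (adjusted p = 0.0064). The rise against control missed the threshold without control #1, control #2 or IL-4 #2, with adjusted p up to 0.064. IL-4 #1, the only IL-4 library of its set, was 2.06 times the control mean.

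The other subunits of this enzyme were measured as well. Idh3b was at 29.1 ± 1.61, 34.1 ± 1.03 and 26.3 ± 1.11 FPKM and Idh3g at 33.9 ± 1.88, 33.6 ± 0.813 and 24.1 ± 1.90 in control, IL-4 and IL-6 Mϕs (SD, n = 3). Against control, neither passed with IL-4 (log2 fold changes 0.23 and −0.01), and Idh3g fell with IL-6 (−0.49 ± 0.10, adjusted p = 0.024 by limma). That call was kept in 3 of the 9 fits without 1 library, and its adjusted p was 0.073 after median-ratio rescaling. Idh3b and Idh3g were both lower in IL-6 than in IL-4 Mϕs, with log2 fold changes of −0.38 ± 0.10 (adjusted p = 0.018) and −0.48 ± 0.10 (0.0084). Idh3a transcript was 17.2% ± 2.21 of Idh3b transcript in control Mϕs, 26.0% ± 6.34 with IL-4 and 17.3% ± 1.57 with IL-6, and IL-4 #3 lay within the control range at 18.7%.

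Ogdh, the first subunit of the 2-oxoglutarate dehydrogenase complex (chr11:6291633-6356642, plus strand), was at 34.4, 29.5 and 31.8 FPKM in control libraries, 41.4, 35.8 and 19.5 under IL-4 and 38.8, 35.4 and 33.5 under IL-6. IL-4 #3 was the lowest of the 9 libraries and IL-4 #1 the highest, so the groups overlapped in every comparison. The log2 fold changes were −0.05 in IL-4 and 0.17 in IL-6 against control, with intervals from −0.63 to 0.53 and from −0.41 to 0.75. The second subunit, Dlst, passed in no comparison, at 11.8 ± 0.255, 15.2 ± 2.76 and 11.8 ± 0.200 FPKM. Dld, the third subunit, which other dehydrogenases share, rose with IL-4 from 23.6 ± 0.868 to 34.4 ± 5.30 FPKM (log2 fold change 0.53 ± 0.13, adjusted p = 0.019 by limma). That call was kept in 5 of the 9 fits without 1 library. Without IL-4 #3, Dlst passed as well in IL-4 against control (0.51, adjusted p = 0.0011 by limma).

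Fh1, fumarase (chr1:175600374-175625635, minus strand), was at 10.7, 14.4 and 13.2 FPKM in control libraries, 18.3, 18.4 and 22.1 under IL-4 and 11.6, 12.4 and 11.4 under IL-6. The IL-4 libraries were the 3 highest, and control and IL-6 overlapped. Fh1 rose with IL-4 by 0.62 ± 0.14 on the log2 scale (adjusted p = 0.015 by limma) and IL-6 against IL-4 gave −0.72 ± 0.14 (adjusted p = 0.0055). Both calls were kept in each of the 9 fits without 1 library. With a term for the set the rise was 0.52 (adjusted p = 0.17), and with only the 2 groups fitted its adjusted p was 0.064.

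Mdh2, the mitochondrial malate dehydrogenase that closes the cycle (chr5:135778480-135790398, plus strand), was at 31.8, 47.3 and 42.3 FPKM in control libraries, 69.5, 72.3 and 117.1 under IL-4 and 29.5, 34.4 and 35.0 under IL-6. Each IL-4 library lay above each of the other 6, and IL-6 #2 and #3 lay within the control range. Mdh2 rose with IL-4 by 1.07 ± 0.23 on the log2 scale (adjusted p = 0.011 by limma) and was 0.382 of the IL-4 level in IL-6 Mϕs (log2 fold change −1.35 ± 0.23, adjusted p = 0.0029). Without IL-4 #3, the highest library, the rise was 0.83 (adjusted p = 0.0057). With a term for the set it was 0.80 (adjusted p = 0.17), and IL-4 #1 was 1.72 times the control mean.

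Mdh1, the cytosolic malate dehydrogenase of the malate-aspartate shuttle (chr11:21556787-21572367, minus strand), was at 42.8, 60.5 and 56.9 FPKM in control libraries, 73.2, 63.5 and 86.6 under IL-4 and 30.8, 35.6 and 36.0 under IL-6. The 3 groups did not overlap and stood in the order IL-4, control, IL-6 from high to low. IL-6 against IL-4 gave −1.12 ± 0.17 on the log2 scale (adjusted p = 0.0016 by limma). Neither neighbouring step passed, with 0.48 ± 0.17 for IL-4 (adjusted p = 0.074 by limma) and −0.63 ± 0.17 for IL-6 against control (0.062). The latter passed without IL-4 #3 (0.016), a library of neither group, at the same fold change. Of the exon length of Mdh1, 2.03% overlaps an exon of Wdpcp on the other strand, and whether fragments were counted by strand is not stated.

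Mdh2 and Mdh1 differed in their balance. The ratio of Mdh2 to Mdh1 FPKM was 0.742, 0.781 and 0.744 in control libraries, 0.949, 1.14 and 1.35 under IL-4 and 0.959, 0.968 and 0.974 under IL-6, so both cytokine groups lay above control without overlap. For Idh1 to Idh2 the ratios were 4.21 ± 0.483, 5.15 ± 1.12 and 4.73 ± 0.143 in control, IL-4 and IL-6 Mϕs (SD, n = 3), with every pair of groups overlapping. The summed FPKM of the 8 enzymes other than Acod1 was 358.9 ± 18.6 in control Mϕs, 438.4 ± 22.4 with IL-4 and 281.2 ± 7.99 with IL-6, and the 3 groups did not overlap. Abundant genes weigh most in this sum, and its genes did not move alike. With IL-4, mean Mdh2 went from 40.4 to 86.3 FPKM, whereas the means of Idh1 and Idh2 were below control.

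**Figure D3:**
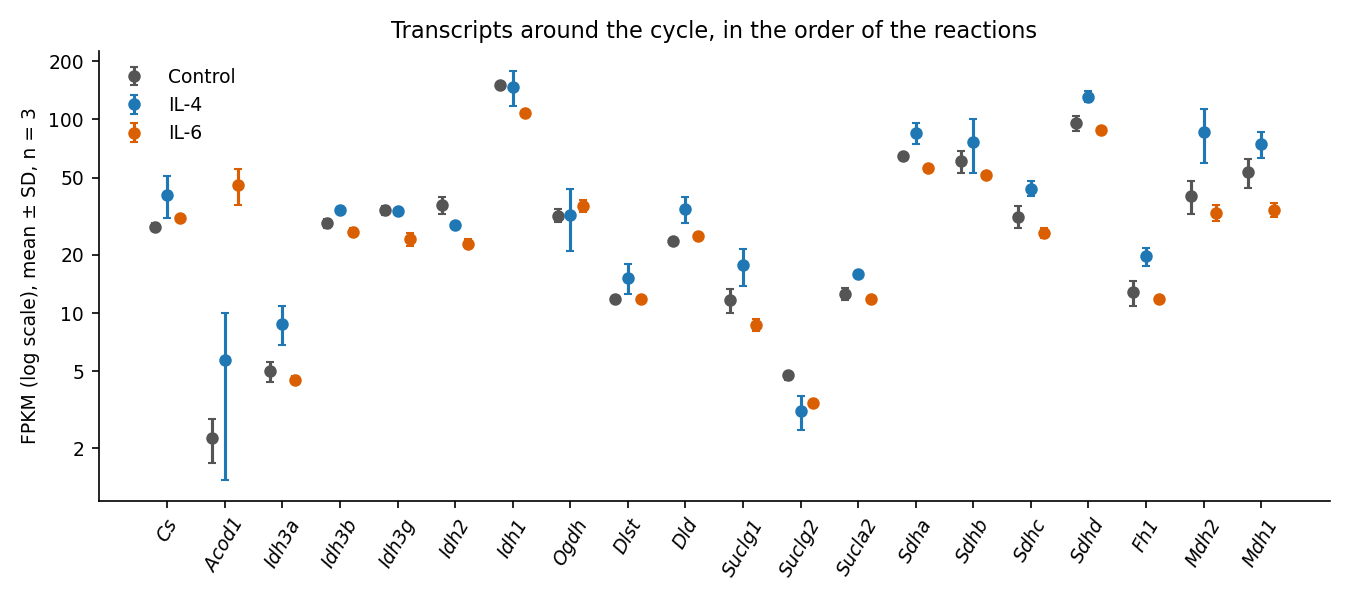
Mean FPKM ± SD (log y axis, n = 3) of the members and of other cycle subunits in control, IL-4 and IL-6 Mϕs, placed in the order of the reactions. IL-4 means lie highest for each gene from Suclg1 to Mdh1 apart from Suclg2, and IL-6 means lie highest for Acod1 and Ogdh.

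IL-4 #3 stood apart from the other IL-4 libraries. The 3 members with the longest exon sequence, Idh3a, Ogdh and Cs at 5072 to 5779 bases, deviated there by −0.40, −0.65 and −0.42 log2 units from their IL-4 group mean. Mdh2, Mdh1 and Fh1, of 2567 to 3562 bases, deviated by 0.48, 0.23 and 0.18, whereas of the other 3, of 2588 to 2771 bases, Acod1 deviated by −0.97, the most of any member, Idh1 by −0.34 and Idh2 by 0.03. The deviations therefore did not follow length throughout. Mitochondrially encoded protein genes, 13 in all, summed to 3400 FPKM in IL-4 #3, whereas IL-4 #1 and #2 had 11935 and 11040. Without this library 6 members were called in IL-4 against control, 4 in IL-6 against control and 8 in IL-6 against IL-4. Calls over all 12824 genes rose as well, from 3186, 1077 and 4375 to 4848, 3168 and 5544. In IL-6 against control, which does not use this library as a group member, fold changes stayed the same and only the shared spread changed. The part of RNA quality in these values was not tested.

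**Figure D4:**
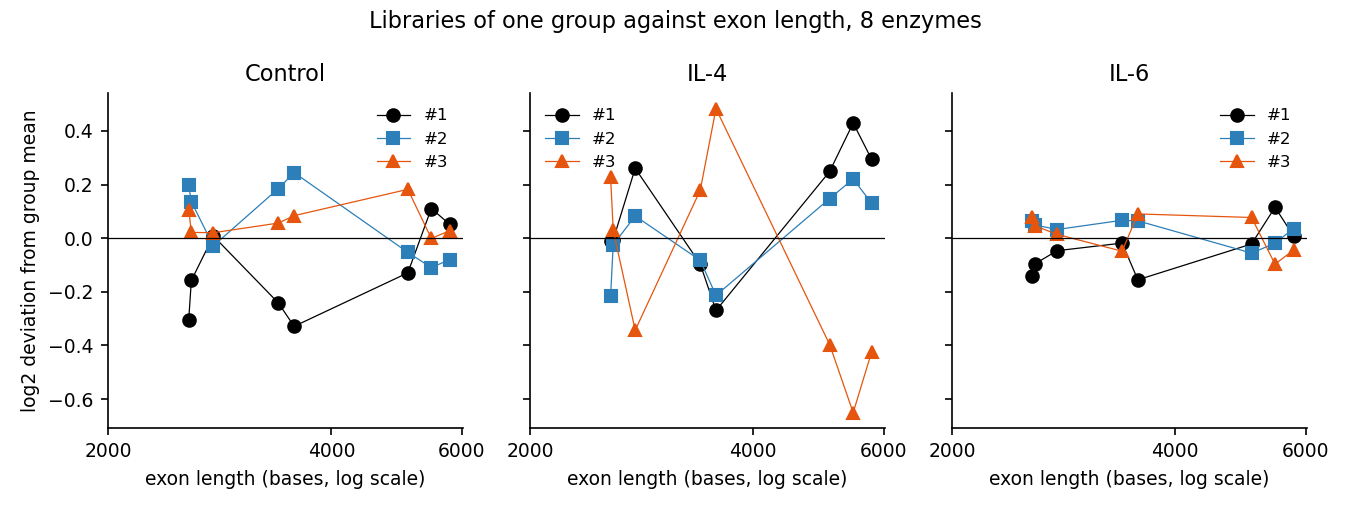
Deviation of each library from its group mean (log2 units, y axis) against exon length (bases, log x axis) for the 8 enzymes other than Acod1, with a panel for each group and points of a library joined. IL-4 #3 runs from above 0 for most of the shorter genes to between −0.40 and −0.65 for the 3 longest, while IL-6 libraries stay within 0.16 of 0.

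Of 50 other genes of the pathway, in 4 lists, 46 passed the filter. With IL-4, 18 were called against control (39.1%, beside 24.8% of all genes), 13 higher and 5 lower. With IL-6, 6 were called against control (13%, beside 8.4%), 2 higher and 4 lower. In IL-6 against IL-4, 22 were called (47.8%, beside 34.1%), 5 higher and 17 lower. Of these calls, 4, 1 and 14 were kept in each of the 9 fits without 1 library, and 4, 0 and 19 with a term for the set. With the mouse number as a block, 13, 3 and 21 were kept.

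Of the 12 other subunits of the cycle, 6 rose and 1 fell with IL-4, as did 8.55% and 16.3% of all genes. They included Suclg1, the shared subunit of succinyl-CoA synthetase (log2 fold change 0.58), while Suclg2, its GTP-specific partner, fell (−0.61). With IL-6 only Idh3g was called against control (8.33% of the list, beside 8.4% of all genes). In IL-6 against IL-4 Mϕs, 8 subunits were lower and none higher, as were 13.3% and 20.8% of all genes. These 8 had Suclg1 (−0.99) and the succinate dehydrogenase subunits Sdhc (−0.76) and Sdha (−0.59) in front. The median of this list was 0.37 in IL-4 against control, −0.17 in IL-6 against control and −0.49 in IL-6 against IL-4, beside −0.20, 0.00 and 0.22 over all genes.

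Of 11 tested genes for pyruvate entry, 1 rose and 2 fell with IL-4 (27.3% called, beside 24.8% of all genes). Mpc1, of the mitochondrial pyruvate carrier, went from 46.8 ± 3.58 FPKM in control to 24.2 ± 2.55 in IL-4 Mϕs (log2 fold change −0.95, adjusted p = 0.00063 by limma). Pdk2, a kinase that inhibits pyruvate dehydrogenase, fell by 0.73 on the log2 scale (adjusted p = 0.033 by limma). Pdhb, a subunit of pyruvate dehydrogenase, rose by 0.40, which missed the threshold with the mouse number as a block (0.060). Each of these calls was kept in 2 of the 9 fits without 1 library. With IL-6, Pdk3, another such kinase, rose from 6.33 ± 0.132 to 11.3 ± 1.05 FPKM (0.82, adjusted p = 0.0074). In IL-6 against IL-4 Mϕs, 4 were higher and 3 lower (63.6% called, beside 34.1% of all genes). Among them Pdk1 (1.16) and Pdk3 (1.14) were higher and Pdp1, the phosphatase that opposes the kinases, was lower (−1.02).

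Of 17 tested carriers and enzymes of side reactions, 5 rose and 2 fell with IL-4 (41.2% called, beside 24.8% of all genes). Slc25a13, a mitochondrial aspartate-glutamate carrier of the malate-aspartate shuttle, was at 3.24 to 3.71 FPKM in control libraries, 12.0 to 18.7 with IL-4 and 1.56 to 2.06 with IL-6. Slc25a12, another such carrier, was called in no comparison, with means of 5.8, 6.8 and 6.5 FPKM in control, IL-4 and IL-6 Mϕs. Slc25a13 rose by 2.15 with IL-4 (adjusted p = 0.00019 by limma) and fell by 0.88 with IL-6 (0.034). The call of this fall was kept in 3 of the 9 fits without 1 library. Slc25a10, the dicarboxylate carrier that exports malate and succinate, went the other way with IL-4, from 26.8 ± 2.49 to 7.89 ± 0.872 FPKM (−1.75, adjusted p = 3.7e-05). With IL-6 it was at −0.52 (0.037), which missed the threshold with the mouse number as a block (0.081).

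With IL-6, 1 gene of this list rose and 3 fell against control (23.5% called, beside 8.4% of all genes). Against IL-4, 1 was higher and 6 were lower (41.2%, beside 34.1%). Me1, the cytosolic malic enzyme, rose 2.53-fold with IL-6 from a low level of 0.305 ± 0.0251 FPKM. Its control mean was below 0.5 FPKM, so Me1 passed the filter only through the IL-4 and IL-6 groups. The log2 fold change was 1.09 (adjusted p = 0.031 by limma, and 0.059 with the mouse number as a block). This call was kept in 2 of the 9 fits without 1 library. Slc25a13 (−3.03) and Pck2, the mitochondrial PEP carboxykinase (−1.96), were lower and Slc25a10 (1.23) was higher in IL-6 than in IL-4 Mϕs. Of 6 tested genes of mitochondrial biogenesis, 1 was called with IL-4 (16.7%, beside 24.8% of all genes) and none in the other comparisons. This was Ppargc1b, the coactivator PGC-1β, at 0.797, 0.485 and 0.414 FPKM in control and 4.69, 3.23 and 0.810 in IL-4 libraries (1.92, adjusted p = 0.041 by limma). It passed in 1 of the 9 fits without 1 library, that without IL-4 #3.

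Markers of other cells were summed beside these results. The 5 of mast cells and basophils summed to 28.8 to 46.4 FPKM in IL-4 libraries, 5.31 to 11.5 in control and 2.78 to 8.69 in IL-6 libraries, with Mcpt4 at 0 in every library. T cell markers reached 2.13 to 3.67 with IL-4, against 0.731 to 1.17 elsewhere. Proliferation genes summed to 85.2, 61.6 and 29.8 in IL-4 #1 to #3, 31.6 to 40.4 in control and 55.1 to 56.8 in IL-6 libraries. Their part in the member results was not tested.

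The genes whose pattern over the 9 libraries was most like that of Acod1 were Itga1, Slc2a6, Casp12, Runx3 and Ctsc, with Pearson r from 0.975 to 0.989. Of these, Ctsc, which encodes cathepsin C, was the most abundant, with means of 42.5, 52.9 and 199.1 FPKM in control, IL-4 and IL-6 Mϕs. For the others the most similar genes were Cyc1 for Mdh2 (r = 0.998), Psmd12 for Fh1 (0.996), Pld3 for Idh2 (0.993), Cul4a for Ogdh (0.992), Aimp2 for Mdh1 (0.990), Pdia4 for Idh3a (0.987), Lamp2 for Cs (0.985) and 4931406C07Rik for Idh1 (0.980). These are descriptions over 9 points that share libraries, depth and treatment. Cyc1, a subunit of respiratory complex III, had means of 56.4, 95.3 and 49.6 FPKM, so that its IL-4 mean was the highest, like that of Mdh2.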

How the data were processed

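RNA-seq values of 9 Mϕ libraries, 3 per condition, were re-analysed. The authors deposited FPKM. The study names STAR 2.4.2a, GRCm38, Cufflinks 2.2.1 and GENCODE M5. FPKM steps equal whole fragments over the GENCODE M21 exon lengths (183346 values above 0, 100% whole within 0.05), as a read counter would give, so the program that made them is not settled. Symbols, positions and lengths are from M21, which matched 50604 of 53379 identifiers with version. Library totals were read from those steps, and depth limits low genes most.

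The 12824 genes averaging 0.5 FPKM or more were fitted as log2(FPKM + 0.1) in limma 3.58.1 (R 4.3.3). The model held all 3 groups and used the trend and robust options with Benjamini-Hochberg adjustment, and was tested on simulated data. Fold changes on that scale understate changes of low genes. Ratios between groups are of mean FPKM, with SD over 3 libraries as error unless SE is named. An exact two-sided permutation of 3 libraries against 3 cannot go below p = 0.1, which each pair of groups without overlap reached. Figures and tables used Python 3.11.15 and pandas 2.3.3.

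Libraries of the same number were read as cultures of the same mouse, since the column names carry m1 to m3 and the labels name 3 mice, although no source states it outright. Correlations of same-mouse deviations from the group means were 0.52, −0.41 and 0.078 for IL-4 and control, 0.41, 0.20 and 0.17 for IL-6 and control, and 0.28, −0.061 and 0.15 for IL-6 and IL-4, so not every pair deviated together.

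The members and lists were chosen with earlier results of these data known. All 9 members are named, with up to 3 called genes of largest change per list and comparison, partners of members (Idh3b, Idh3g, Dlst, Dld, Clybl, Sugct, and 1 that is not reported here), Socs3 and Arg1, and the genes most like a member (5 for Acod1, 1 for each other). Wdpcp and Csl are named for shared sequence, and Slc25a12 as a carrier of the same kind as Slc25a13. Alternatives were another pseudocount, filter or scaling, 2 groups per fit, the mouse number or set of libraries as a term, limma voom on recovered fragments and leaving out each library. Trends on length and GC content were also taken out of each library (11356 genes, splines with 5 degrees of freedom), a choice made after seeing the data. The sets were divided at a summed FPKM of 30 over intestinal secretory genes.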

Additional observations from a re-analysis of the deposited data

How the results depend on the processing

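The direction of every called member was kept under every alternative run. Of the values for single members under alternatives, 539 kept their side of the threshold, 43 moved past it and 12 dropped below it, and uncalled changes near 0, such as those of Ogdh and Idh1, could change sign. With the mouse number as a replicate block the members called were 3, 2 and 5, as without it. It changed the calls of the linked genes counted in the report, and over all genes 3023, 908 and 4463 were called with it. In IL-4 against control, 3 members were called and 1 to 6 under alternatives: 5 with the length and GC trend removed (also with the block), 1 with only the 2 groups fitted, and 2 to 6 without 1 library. In IL-6 against control, 2 were called and 1 to 4 under alternatives: 1 with a term for the set of libraries (also with the trend removed), 4 with the trend removed (also with the block) or only 2 groups, and 1 to 4 without 1 library. In IL-6 against IL-4, 5 were called, 8 with median-ratio rescaling or the trend removed (alone, with the block or with the set), and 5 to 8 without 1 library. Of linked genes, 18 were called in IL-4 against control, 6 with no filter, 4 with the set term or only 2 groups, and 4 to 29 without 1 library. In IL-6 against control 6 were called, 2 with no filter, 3 with the block, 1 with the set term (3 with the trend removed too), 13 with only 2 groups, and 1 to 13 without 1 library. In IL-6 against IL-4 22 were called, and 14 to 29 without 1 library. Fits without IL-4 #3 gave the highest of the counts without 1 library in each comparison. Over all genes, 3186, 1077 and 4375 were called, with 1839, 628 and 2479 at a mean FPKM of at least 5, 1367, 187 and 5037 with the set term, 1796, 2822 and 3009 with only 2 groups, and 4848, 3168 and 5544 without IL-4 #3. In IL-6 against control, leaving out IL-4 #3 kept every fold change, since that library is in neither group. Only the spread that the fit shares over the 3 groups changed there. The cause of the other moves was not tested.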

Other observations

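Mitochondrially encoded protein genes of the respiratory chain, transcribed from mitochondrial DNA, did not separate the groups. The 13 genes summed to 8286 ± 1882 FPKM in control Mϕs, 8792 ± 4691 with IL-4 and 10084 ± 1108 with IL-6 (SD, n = 3), and the range of the IL-4 libraries, 3400 to 11935, took in all the others. Pck2, the mitochondrial PEP carboxykinase, spread widely among IL-4 libraries, at 5.92, 14.4 and 19.7 FPKM in #1 to #3, while control lay at 4.62 to 5.38 and IL-6 at 2.93 to 3.02. Its call in IL-4 against control (log2 fold change 1.21, adjusted p = 0.049 by limma) was 0.21 with a term for the set of libraries, a fit in which IL-4 #1 alone is compared with control.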
